A study of Drosophila melanogaster with 15 samples.

Results

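The response to a sugar-free diet was read from 10 of the 15 libraries of the series, namely the 5 from flies fed yeast paste alone for 4 days and the 5 from unstressed flies held 5 days at 25°C on standard food. Libraries were chosen by their treatment label and paired within genotype. The study sequenced RNA from whole Drosophila melanogaster males to ask how stress responses depend on the DGC, the dystrophin-associated set of membrane proteins that anchors the cytoskeleton to the matrix outside the cell and fails in muscular dystrophies. Each library came from about 10 males, 1 week of age, homogenised together, and there was 1 library for each genotype and treatment. The 5 genotypes therefore repeat the diet, and every standard deviation (SD) below is the spread of 5 genotype ratios, which includes real differences between genotypes.

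Control flies were CantonS/w[1118]. Dg mutants carried Dg[O55]/Dg[O86], an allele pair of Dystroglycan. Dys mutants were Df(3R)Exel6184/Df(3R)Exel6184, homozygous for a deficiency that takes in Dystrophin. Syn1 mutants were Df(3L)BSC450/deltaSyn1[5-2] and Nos mutants Df(2L)BSC230/deltaNos15, each a mutant allele over a deficiency, for Syntrophin-like 1 and Nitric oxide synthase. The deficiencies also remove 1 or both copies of neighbouring genes. The paste was dry yeast in water with propionic acid, and the ingredients of the standard cornmeal-agar food are not given in the sources used here. Loss of sugar, a yeast-rich and propionic acid-containing food, and 4 days against 5 cannot be told apart here.

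Values were deposited as FPKM, fragment counts scaled to transcript length and to the total of mapped fragments. The 10350 named loci with an estimate marked OK in all 15 libraries were analysed, of 14124 listed. A locus can list several genes, and 993 do. Summed FPKM over these loci ran from 238001 to 266536 in unstressed and from 266578 to 317011 in no-sugar libraries. Relative depth, read from the steps between low values and set to 1 in unstressed control, ran from 0.893 to 1.12 and from 0.833 to 0.958. Absolute depth is unknown, so no counting interval is given. The titles of the unstressed Dys, Syn1 and Nos libraries call them control genotype, against their genotype label. The Syn1 locus was listed at 0 in both Syn1 libraries, and each analysed locus named Dys alone was listed at 0 in both Dys libraries, while the locus shared by CG6255 and Dys kept 81.6 and 89.2 FPKM there. The locus shared by CG6700 and Nos had 23.2 and 27.2 FPKM in the Nos libraries and 31.6 to 45.4 in the other 8. The Dg locus had 13.6 and 12.5 FPKM in the Dg libraries and 10.3 to 14.2 in the others, so its level does not check that label.

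Dietary sugar is a fuel that flies absorb after gut enzymes have cut starch and disaccharides into monosaccharides. Without it, animals draw on stored glycogen and fat, and on the carbon of amino acids, whose nitrogen must then be disposed of. Yeast is rich in protein and nucleic acid and also holds carbohydrate of its own in the form of glycogen, trehalose and cell wall glucans and mannans.

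Most changes went upward. For each genotype the log2 ratio of FPKM + 1, no sugar to unstressed, was taken and averaged over the 5 genotypes, a scale on which low loci appear to change less than they did. limma, fitted to all 15 libraries with terms for genotype and treatment, called 303 of 10350 loci at a Benjamini-Hochberg adjusted p below 0.1, a background of 2.93%. Of these, 266 rose (2.57%) and 37 fell (0.357%), and 289 had the same sign in all 5 genotypes. Over all loci, 739 were higher in all 5 genotypes (7.14%) and 751 were lower in all 5 (7.26%), so the excess of increases lay in their size. With a mean log2 ratio of at least 1 and the same sign in all 5 genotypes there were 147 higher loci (1.42%) and 6 lower (0.058%). Of the called loci, 109 did not overlap between the 5 unstressed and the 5 no-sugar libraries, 100 of the higher and 9 of the lower, where 137 (1.32%) and 23 (0.222%) of all loci did not. With 2-fold as the null and an unadjusted P below 0.1, limma's treat called 79 higher and 2 lower loci (0.783% in all), and 3 after Benjamini-Hochberg adjustment. At an unadjusted p below 0.05, 960 loci were higher (9.28%) and 542 lower (5.24%), which is the background for the counts of lists at that threshold below. The number of calls changed with the libraries in the fit. With the 10 libraries of the 2 diets alone 92 loci were called, and leaving out 1 genotype gave 41 (without Dg), 43 (without Dys), 67 (without control), 211 (without Nos) or 634 (without Syn1).

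**Figure D1:**
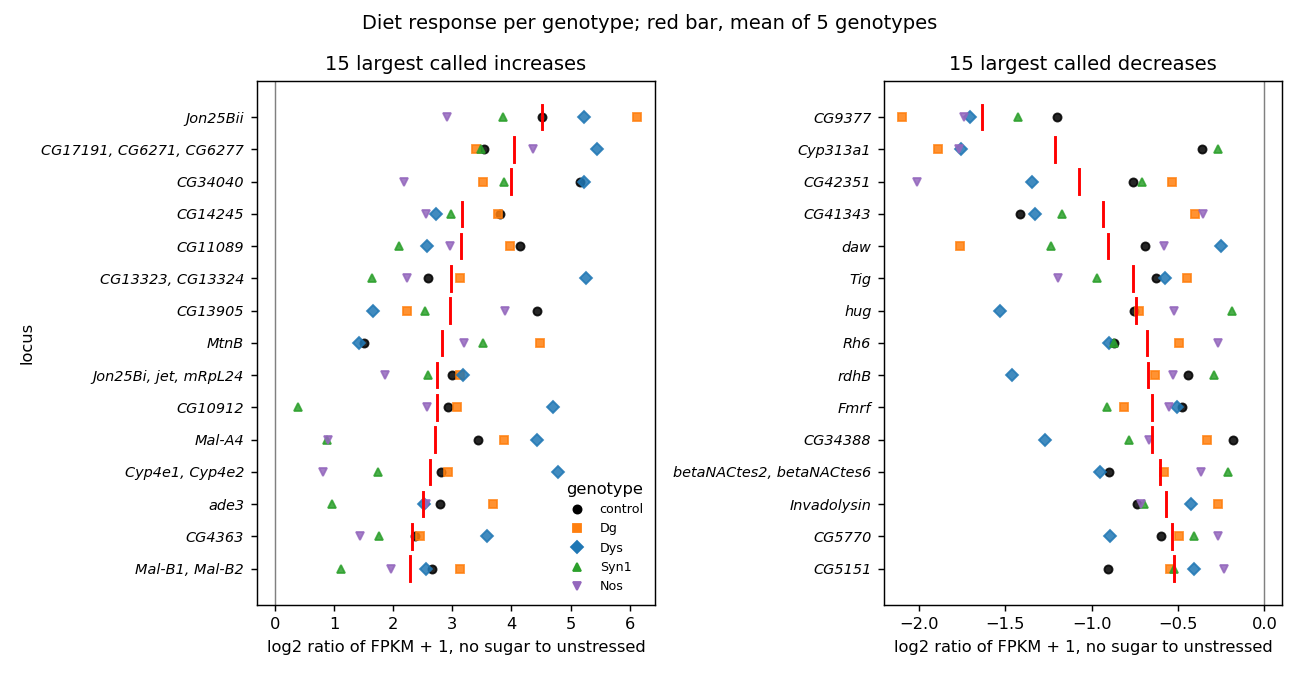
Log2 ratio of FPKM + 1, no sugar to unstressed, for the 15 largest called increases (left) and the 15 largest called decreases (right), with 1 point per genotype and a red bar at the mean. Increases reach a mean of 4.52 at Jon25Bii, while the largest decrease is -1.63 at CG9377.

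The size of these changes differed between genotypes. Their shared direction is no separate result, since agreement between genotypes favours a call. Over all loci, 14.4% had the same sign in all 5 genotypes. Over the 266 loci that rose, the median log2 ratio was 1.05 in control, 1.16 in Dg and 1.11 in Dys, but 0.56 in Syn1 and 0.59 in Nos. Changes of at least 2-fold (a log2 ratio of 1 or more in size) were counted in each genotype over all loci. There were 450 higher (4.35%) and 37 lower (0.357%) in control, 444 (4.29%) and 85 (0.821%) in Dg, and 407 (3.93%) and 140 (1.35%) in Dys. Syn1 had fewer, at 168 higher (1.62%) and 67 lower (0.647%), and in Nos the 252 lower loci (2.43%) outnumbered the 170 higher (1.64%). Over the 266, the Nos ratio was the lowest of the 5 at 39.1% of them and the Syn1 ratio at 44.4%, where each was the lowest at 19.5% of all loci. The unstressed Nos library also stood apart at these loci. It held the highest of the 5 unstressed values at 179 of the 266 (67.3%), against 20.1% of all loci, and a high unstressed value lowers the ratio by construction. A limma term for the 4 mutants against control found 0 loci whose diet response differed at an adjusted p below 0.1 (0%, lowest adjusted p 0.212, 390 at an unadjusted p below 0.05). Control has 1 pair, which is assumed there to vary like the others.

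Enzymes that digest starch and maltose rose. Amylases cut starch to maltose, and maltases cut maltose to glucose. Of 11 loci listed for this function, 7 were called higher and none lower, with a median of the mean log2 ratios of 1.98 against -0.02 over all loci. The highest was Mal-A4, a maltase (2R, 4340137 to 4348542, as positions are listed, genome build not stated). It had 6.99, 4.91, 2.77, 9.64 and 35.9 FPKM in unstressed control, Dg, Dys, Syn1 and Nos flies and 85.3, 85.0, 80.0, 18.7 and 67.7 on yeast paste. The no-sugar values lay above the unstressed value of the same genotype in all 5, and the groups overlapped through Nos and Syn1 (mean log2 ratio 2.70 ± 1.69, adjusted p = 0.0725, limma). The locus shared by the maltases Mal-B1 and Mal-B2 (2L, 11846894 to 11854360) had 12.4, 24.4, 12.2, 34.0 and 50.6 FPKM unstressed and 83.7, 220.8, 77.0, 75.1 and 200.9 on yeast paste. These groups did not overlap, at a mean of 2.29 ± 0.77 (adjusted p = 0.0298).

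The amylases Amy-p and Amy-d are near-identical copies within 1 listed interval (2R, 13004301 to 13017858), so reads could be split between them. The Amy-p locus, listed with Cda9 and Spn53F, had 217.4, 88.9, 53.1, 131.5 and 251.9 FPKM unstressed and 1390.5, 579.8, 562.9, 492.8 and 402.3 on yeast paste. Every no-sugar library was above every unstressed one, at a mean of 2.26 ± 1.03 (adjusted p = 0.019). Amy-d rose by the same mean (2.26 ± 1.15, adjusted p = 0.0374). Mal-A5 (2.20 ± 1.03), the Mal-A7 locus (1.98 ± 0.53) and Mal-A1 (1.67 ± 0.90) also rose, and are named after their values were seen. Mal-A3 fell short of a call with a lower value in Syn1 (1.69 ± 1.67, adjusted p = 0.242). The trehalase locus Treh (0.49 ± 0.36, adjusted p = 0.172) and the related amylase Amyrel (0.38 ± 0.62) were not called. In heat-stressed flies the list had a median of 0.11, and the 4 loci with the largest means differed between no sugar and heat at adjusted p-values of 0.0302 (Mal-A4), 0.00206 (Mal-B1 and Mal-B2), 0.000903 (Amy-p) and 0.00405 (Amy-d). Of the 11 loci 0 were called without control, 1 without Dg, 0 without Dys, 10 without Syn1 and 7 without Nos, while the median stayed between 1.84 and 2.27.

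**Figure D2:**
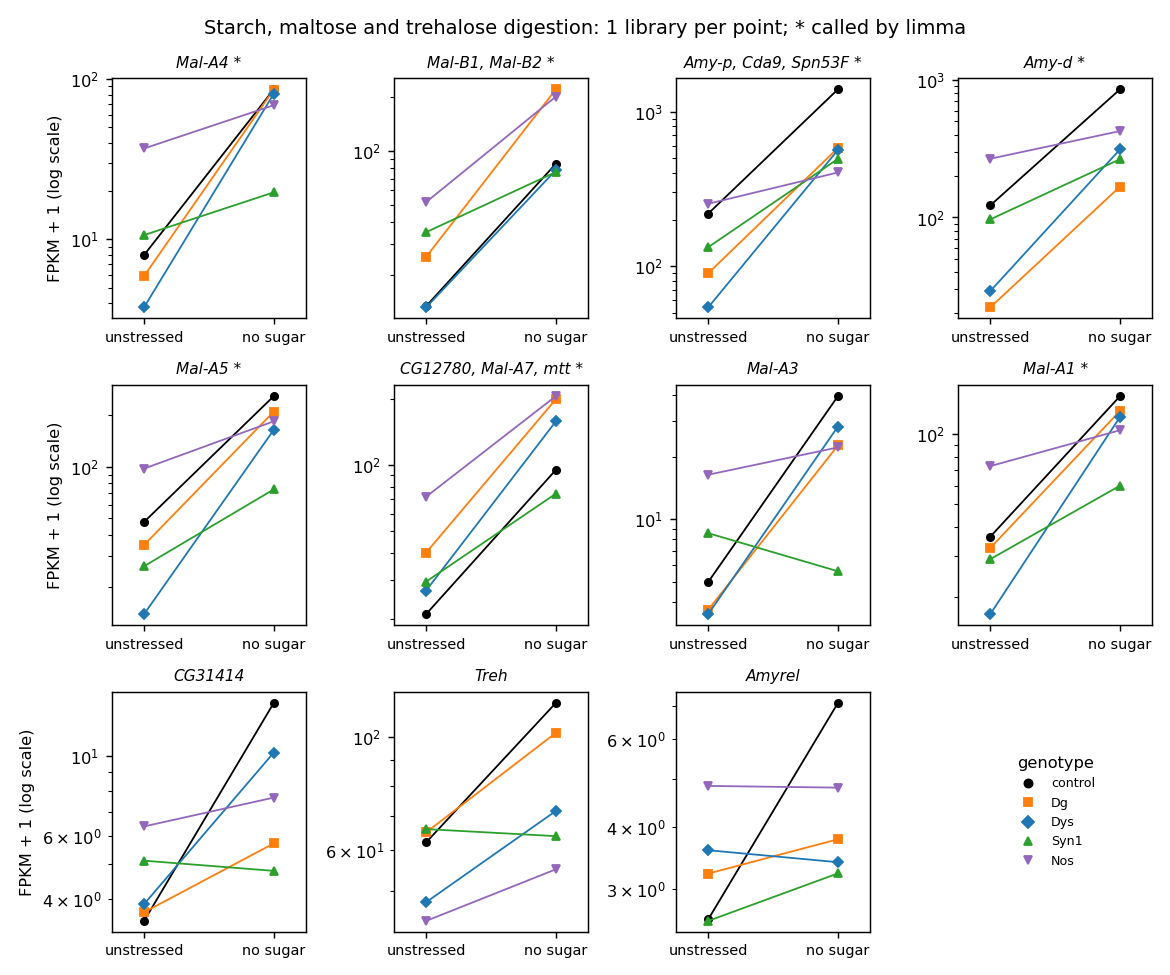
FPKM + 1 (log scale) of the 11 loci for starch, maltose and trehalose digestion in unstressed and no-sugar flies, with 1 library per point and lines joining libraries of 1 genotype. All lines rise at the 7 called loci, such as Amy-p from 53.1 to 562.9 FPKM in Dys, while Nos starts high at Mal-A4 (35.9).

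The largest increase of any called locus was at a gut protease. The Jonah genes encode serine proteases secreted in the midgut. Jon25Bii (2L, 4936776 to 4955322) had 37.1, 5.98, 18.0, 31.6 and 95.3 FPKM unstressed in control, Dg, Dys, Syn1 and Nos, and 868.4, 485.7, 705.4, 468.8 and 719.8 on yeast paste. The mean change was more than that of any other called locus (4.52 ± 1.24, adjusted p = 0.00415), with no overlap, and the same locus had a mean of -2.89 under heat. Jon25Bi, listed with jet and mRpL24 over the same interval, rose by 2.75 ± 0.55 (adjusted p = 0.00348) from 132.8 to 500.9 FPKM unstressed to 1172 to 2263. The 2 proteases are close copies, and reads could be shared. Jon99Fii rose less (1.00 ± 0.58, adjusted p = 0.0682), and 3 of 7 Jonah loci were called in all. Jon65Aiv, at 354.5 to 1540 FPKM unstressed and 965.4 to 2388 on yeast paste, did not pass (1.04 ± 1.02, adjusted p = 0.159).

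Of 5 trypsin loci 1 was called, betaTry, which had 2244, 900.7, 765.1, 1385 and 2021 FPKM unstressed and 3525, 1758, 4831, 2968 and 3033 on yeast paste (1.19 ± 0.85, adjusted p = 0.068). Its groups overlapped, and it was called neither without control, Dg, Dys nor Nos. Mucins and mucin-related proteins, which form the gut's protective layer in part, gave 5 called higher of 19. The median of the 19 was only 0.10, and at an unadjusted p below 0.05 by limma 5 were higher and 1 lower. Muc68E rose from 2.84 to 8.53 FPKM unstressed to 14.5 to 41.3 with no overlap (1.74 ± 1.01, adjusted p = 0.0264), and Muc11A from 50.5 to 122.7 to 165.0 to 211.7 (1.31 ± 0.55, adjusted p = 0.0341). The Muc55B locus (1.99 ± 1.55) and Mur18B (1.495 ± 0.93) were called with log2 ratios of 0.01 in Syn1 and 0.06 in Nos. Without control, Dg, Dys, Syn1 or Nos, 1, 0, 1, 5 and 4 of the 19 were called.

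These genes also serve as markers of the adult gut, and in whole flies more gut cells and more RNA per gut cell cannot be told apart. The 17 gut marker loci include loci already counted above, among them Jon25Bii, Jon25Bi, Amy-p and Amy-d, so the counts are not independent. Of the 17, 8 rose and none fell, at a median of 1.04 (2, 2, 2, 8 and 5 were called without control, Dg, Dys, Syn1 and Nos). Their summed level went from 1982 to 6291 FPKM unstressed to 6502 to 13854 on yeast paste. Not all moved. nub, a transcription factor of enterocytes, rose (0.94 ± 0.75, adjusted p = 0.0973), but the lysozyme loci (0 of 6 called by limma, 2 at an unadjusted p below 0.05) and Npc1b, a sterol transporter of the midgut (0.06), were not called. No gut marker was at 0 in all 10 libraries. What part gut mass or content plays in these results was not tested.

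Most loci listed for de novo purine synthesis rose. Enzymes of this pathway build inosine monophosphate, the precursor of adenine and guanine nucleotides, from ribose phosphate. The series of steps uses glycine, glutamine, aspartate and folate. The list was drawn up after the values had been seen, so its counts describe these data and the 9 listed loci only. Of 9 loci, 6 rose, none fell, and the median was 2.01 (0.02 under heat). All 6 act in the steps up to inosine monophosphate, and CG3590 (Adsl) also acts on the branch to adenine nucleotides. CG6767 (Prps, 3L, 9676669 to 9697004) makes the phosphoribosyl pyrophosphate that the pathway starts from. It had 22.2, 29.98, 24.5, 30.6 and 83.0 FPKM unstressed in control, Dg, Dys, Syn1 and Nos and 223.2, 103.8, 84.7, 106.6 and 332.2 on yeast paste, with no overlap (2.11 ± 0.66, adjusted p = 0.00691).

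Prat2, which catalyses the committed step, rose by 2.01 ± 1.07 (adjusted p = 0.0586) and overlapped, since Nos had 59.2 FPKM unstressed and Dys and Syn1 had 25.3 and 48.6 on yeast paste. ade3 (2L, 7011951 to 7024413), which carries several activities of the pathway, had 3.37, 3.91, 5.35, 15.2 and 12.9 FPKM unstressed and 29.4, 62.2, 35.2, 30.7 and 80.9 on yeast paste. It did not overlap either (2.505 ± 0.98, adjusted p = 0.0107). ade5, the next enzyme on the list, rose by 1.86 ± 0.86 (adjusted p = 0.0279). CG3590 (Adsl), adenylosuccinate lyase, had 5.12, 5.02, 4.63, 7.61 and 10.5 FPKM unstressed and 29.5, 29.1, 13.2, 22.4 and 91.4 on yeast paste, which did not overlap (2.08 ± 0.70, adjusted p = 0.00415). CG11089, for which RefSeq lists atic, the enzyme of the last steps, as a synonym (3R, 20702645 to 20720326), had the largest change of the list. Its values were 3.28, 3.84, 4.85, 5.64 and 21.5 FPKM unstressed and 75.0, 74.8, 33.8, 27.5 and 174.0 on yeast paste, again apart (3.15 ± 0.89, adjusted p = 0.00696).

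The loci that act only beyond inosine monophosphate were not called. CG17273 (Adss), on the branch to adenine nucleotides, was higher in all 5 genotypes (0.82 ± 0.58, adjusted p = 0.112). ras and bur, on the branch to guanine nucleotides, had 0.26 ± 0.39 and 0.00 ± 0.18. The bur locus is shared with CG31988 and was the most abundant of the 9, at 502.1 to 878.3 FPKM on either diet. Of 3 pyrimidine synthesis loci none was called by limma, nor reached an unadjusted p below 0.05, and their median was 0.00. The purine calls were less dependent on single genotypes than those for starch, since 4, 4, 4, 8 and 6 of the 9 were called without control, Dg, Dys, Syn1 and Nos.

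**Figure D3:**
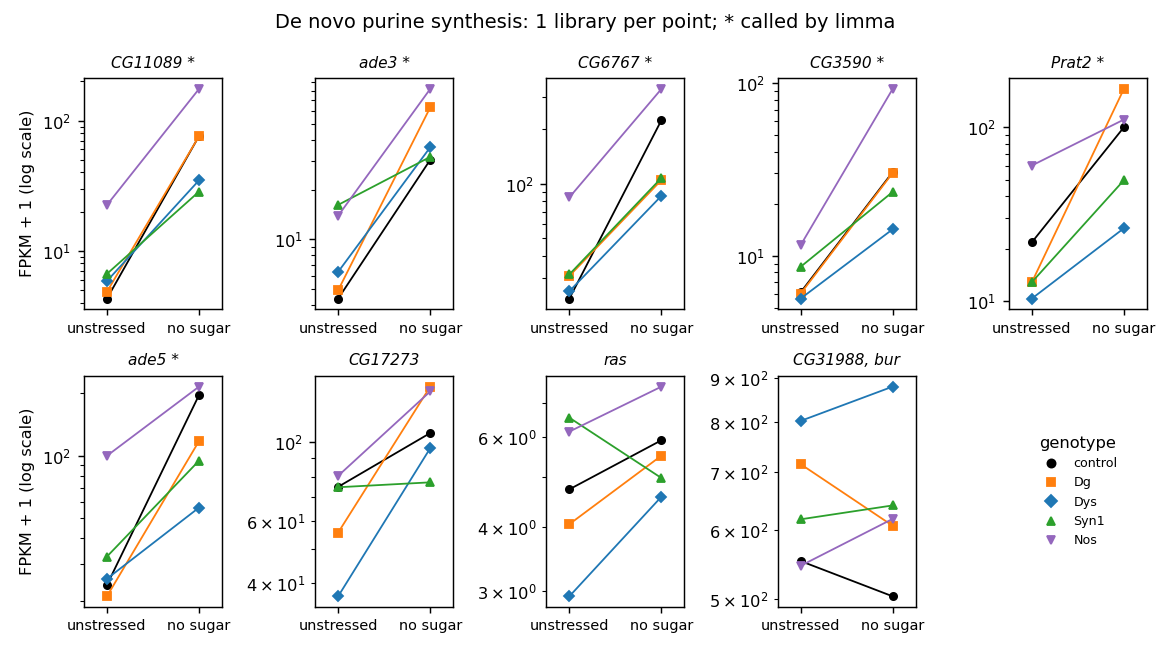
FPKM + 1 (log scale) of the 9 purine synthesis loci, with 1 library per point and lines joining the libraries of 1 genotype. All 5 lines rise at the 6 called loci, and the unstressed Nos library lies above the other 4 unstressed libraries at 5 of these (CG11089, CG6767, CG3590, Prat2 and ade5).

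Some enzymes of amino acid metabolism rose. Of 16 loci for amino acid and uric acid breakdown, 7 were called higher and none lower, and the median was 0.53. CG1673 (Bcat, X, 13283959 to 13295402), which removes the amino group of branched-chain amino acids, had 24.7, 18.5, 12.6, 25.998 and 26.6 FPKM unstressed and 98.0, 163.6, 78.8, 38.8 and 154.9 on yeast paste. The groups did not overlap (2.13 ± 0.96, adjusted p = 0.0276). Oat, ornithine aminotransferase, had 14.2, 9.26, 9.86, 14.4 and 25.9 against 152.4, 87.2, 19.0, 46.2 and 73.9 FPKM and overlapped through Nos and Dys (2.08 ± 1.08, adjusted p = 0.0318). CG3011 (Shmt), which passes carbon from serine to folate, rose by 1.76 ± 1.04 (adjusted p = 0.0457) with no overlap, and by most in Nos, from 3.40 to 35.5 FPKM.

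Phenylalanine and tyrosine are broken down in sequence by Hn, phenylalanine hydroxylase, and later by hgo, homogentisate dioxygenase. Hn rose by 1.39 ± 0.68 (adjusted p = 0.0457), from 7.26 to 36.1 FPKM unstressed to 19.1 to 67.0. hgo (1.28 ± 0.69), Spat, an aminotransferase (1.13 ± 0.36), and Gs1 (1.27 ± 0.49) were the other loci called, at adjusted p-values of 0.0457, 0.00872 and 0.0388, and are named after their values were seen. Gs1 is a glutamine synthetase, and so makes an amino acid while binding ammonia. The glutamate dehydrogenase locus Gdh (0.19 ± 0.18) and P5CDh1, of proline breakdown (-0.19 ± 0.24), were not called. Leaving out control, Dg, Dys, Syn1 or Nos left 1, 1, 3, 7 and 6 of the 16 called. Of 9 amino acid transporter loci 2 rose. CG1139 (acs) had 6.48, 10.4, 6.88, 7.21 and 9.05 FPKM unstressed and 18.3, 25.1, 14.99, 11.8 and 18.7 on yeast paste, which did not overlap (1.04 ± 0.27, adjusted p = 0.00671). The path locus, shared with CG32036 and CG32037, rose by 0.60 ± 0.35 (adjusted p = 0.045), and only 1 of the 9 was called without control, Dg or Dys. The median of the 9 was -0.09, and 2 were lower at an unadjusted p below 0.05.

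Among genes of energy stores, 1 lipase stood out. bmm (3L, 14769552 to 14795294) encodes brummer, which releases fatty acids from stored triacylglycerol. It had 27.4, 30.3, 26.5, 46.3 and 61.6 FPKM in unstressed control, Dg, Dys, Syn1 and Nos and 125.7, 164.0, 147.8, 103.0 and 234.3 on yeast paste. All 5 no-sugar libraries were above all 5 unstressed ones (2.01 ± 0.53, adjusted p = 0.00348), the heat mean was 0.01, and bmm was called with any 1 genotype left out. It was the only called locus of 21 for lipid synthesis, storage and uptake (median 0.17). By limma, 8 of the 21 were higher and none lower at an unadjusted p below 0.05. CG42351 (Jabba), a lipid droplet protein, fell by 1.07 on the log2 scale (SD 0.61, adjusted p = 0.0415), from 12.0 to 29.9 FPKM unstressed to 4.10 to 12.2, with 1 overlapping value on each side.

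Galk, galactokinase, rose by 1.48 ± 0.96 (adjusted p = 0.052), by 2.77 in control and 0.20 in Nos, and is the 1 locus found for a list drawn up after the values were seen. Of 18 loci for glycolysis, trehalose and glycogen, limma called none, with 5 higher and none lower at an unadjusted p below 0.05, and their median was 0.19. Gapdh1 had 0.18 ± 0.52 (adjusted p = 0.785, a locus shared with Nop17l and cathD) and the glucose transporter Glut1 0.05 ± 0.23 (adjusted p = 0.888). Fatty acid oxidation was not called either (0 of 9 by limma, 2 at an unadjusted p below 0.05). Its carnitine palmitoyltransferase whd, on a locus shared with lola, had 0.34 ± 0.31 (adjusted p = 0.252). The respiratory chain and ATP synthase had 0 of 15 called and 0 at an unadjusted p below 0.05, with a median of 0.00 but genotype medians from -0.38 in Dys to 0.47 in Dg.

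Cytosolic ribosomal protein loci moved by little but together. Of 52, 44 were higher in all 5 genotypes (7.14% of all loci were), none was lower in all 5, and 8 passed the test. Their median was 0.35, and the genotype medians ran from 0.17 in Nos to 0.62 in Dg, with 0.34 in control, 0.28 in Dys and 0.29 in Syn1 between them. The median of the mean response to heat was -0.07. RpLP2, of the ribosomal stalk, had 956.1, 720.1, 739.3, 984.9 and 987.2 FPKM unstressed and 1350, 1259, 964.6, 1455 and 1473 on yeast paste (0.56 ± 0.15, adjusted p = 0.0601). The RpL21 locus (0.50 ± 0.09, adjusted p = 0.0507), RpL15 (0.50 ± 0.22, adjusted p = 0.0755) and RpS26 (0.46 ± 0.28, adjusted p = 0.0858) also rose, RpL15 with no overlap between the groups.

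The loci outside this pattern included gene copies of low level, RpS10a (-0.28 ± 0.31) and the RpL22-like locus (-0.35 ± 0.27). Mitochondrial ribosomal proteins (0 of 18 called by limma, 1 higher and 1 lower at an unadjusted p below 0.05, median -0.07) and ribosome biogenesis factors (0 of 13, with 3 lower at an unadjusted p below 0.05, median -0.12) did not share it. None of the 52 was called with control, Dg, Dys or Nos left out, and without Syn1 18 were called higher and 1 lower, while the median stayed between 0.27 and 0.40.

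**Figure D4:**
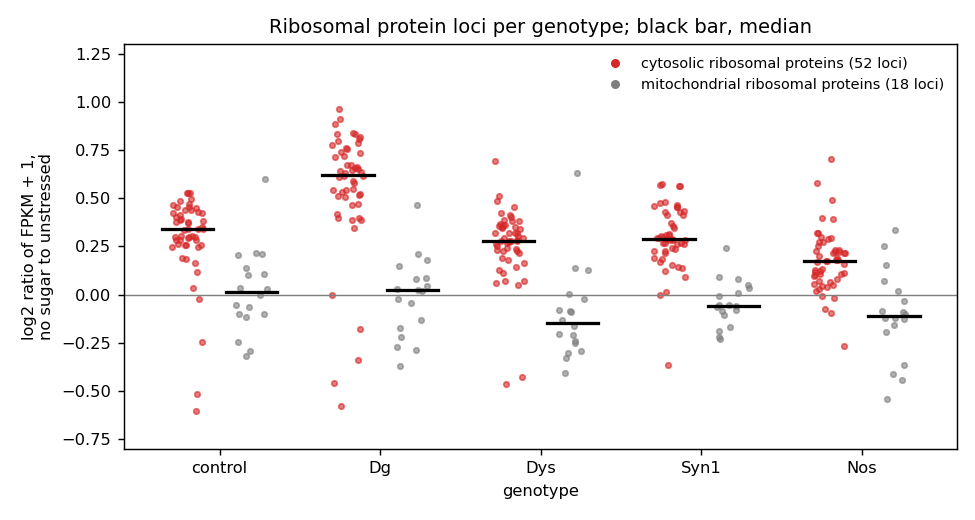
Log2 ratio of FPKM + 1, no sugar to unstressed, for 52 cytosolic (red) and 18 mitochondrial (grey) ribosomal protein loci in each genotype, 1 point per locus, with black bars at the medians. Cytosolic medians run from 0.17 in Nos to 0.62 in Dg, and mitochondrial medians from -0.15 in Dys to 0.02 in Dg.

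Acidification and degradation were represented by a few loci. The vacuolar proton pump acidifies lysosomes and the gut lumen, and 4 of its 16 loci rose, led by the Vha100-2 locus (0.83 ± 0.36, adjusted p = 0.0975, shared with CG31122 and fru), Vha16-1 (0.73 ± 0.35, adjusted p = 0.06) and VhaAC45 (0.58 ± 0.26, adjusted p = 0.0601). None of them was called without control, Dg or Dys, and 2 were without Nos. Of 12 lysosome and autophagy loci 2 rose. CtsB1, cathepsin B, had 17.4, 17.8, 14.5, 25.3 and 28.6 FPKM unstressed and 30.3, 41.1, 29.2, 32.7 and 36.0 on yeast paste, with no overlap (0.71 ± 0.37, adjusted p = 0.0374). Atg8a, of the autophagosome membrane, did not overlap either (0.57 ± 0.32, adjusted p = 0.0614). Neither was called without control, Dg or Dys. Proteasome subunits (0 of 11, with 1 lower at an unadjusted p below 0.05) and chaperones (0 of 14, with 1 higher and 2 lower) had no limma call.

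Detoxification and metal-binding genes added single large increases. The Cyp4e1 and Cyp4e2 locus, of cytochrome P450 enzymes, rose by 2.62 ± 1.49 (adjusted p = 0.0744), and 6 of 50 P450 loci rose in all, among them Cyp12a4 (1.46 ± 0.82) and the Cyp4ac1 and Cyp4ac2 locus (0.59 ± 0.40). Without control, Dg or Dys no P450 locus was called higher, and without Syn1 9 were. Cyp313a1 fell. It had 72.3, 119.0, 78.8, 78.9 and 74.7 FPKM unstressed and 56.1, 31.3, 22.6, 65.4 and 21.2 on yeast paste, with no overlap and with log2 ratios of -0.36 in control and -0.27 in Syn1 against -1.89, -1.76 and -1.77 in Dg, Dys and Nos (-1.21 ± 0.82, adjusted p = 0.0654). MtnB, a metallothionein, had 6.49, 1.91, 3.43, 1.42 and 1.75 FPKM unstressed and 20.4, 63.9, 10.9, 26.7 and 24.3 on yeast paste, also apart (2.83 ± 1.33, adjusted p = 0.0279). Of 18 loci for metals it was called with Zip3, a zinc transporter family member (1.02 ± 0.64, adjusted p = 0.0469), and 1, 0, 1, 3 and 2 of the 18 were called without control, Dg, Dys, Syn1 and Nos. Ugt86Dd (1.40 ± 0.84, adjusted p = 0.0457), Ugt86Dc (1.00 ± 0.61), Prx2540-2 (0.95 ± 0.69), the Gclc locus (0.64 ± 0.35) and the Sod3 locus (0.60 ± 0.34) rose as well. They belong to 15 UDP-glycosyltransferase loci and 9 loci for antioxidant enzymes, of which 3 were called in each. Both lists had 0 calls by limma without control, Dg or Dys and with the 10 libraries only. At an unadjusted p below 0.05 the main fit had 6 and 4 higher, and 0 and 1 lower. Of 10 glutathione S-transferase loci none was called by limma, with 5 higher at an unadjusted p below 0.05 and a median of 0.59.

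**Figure D5:**
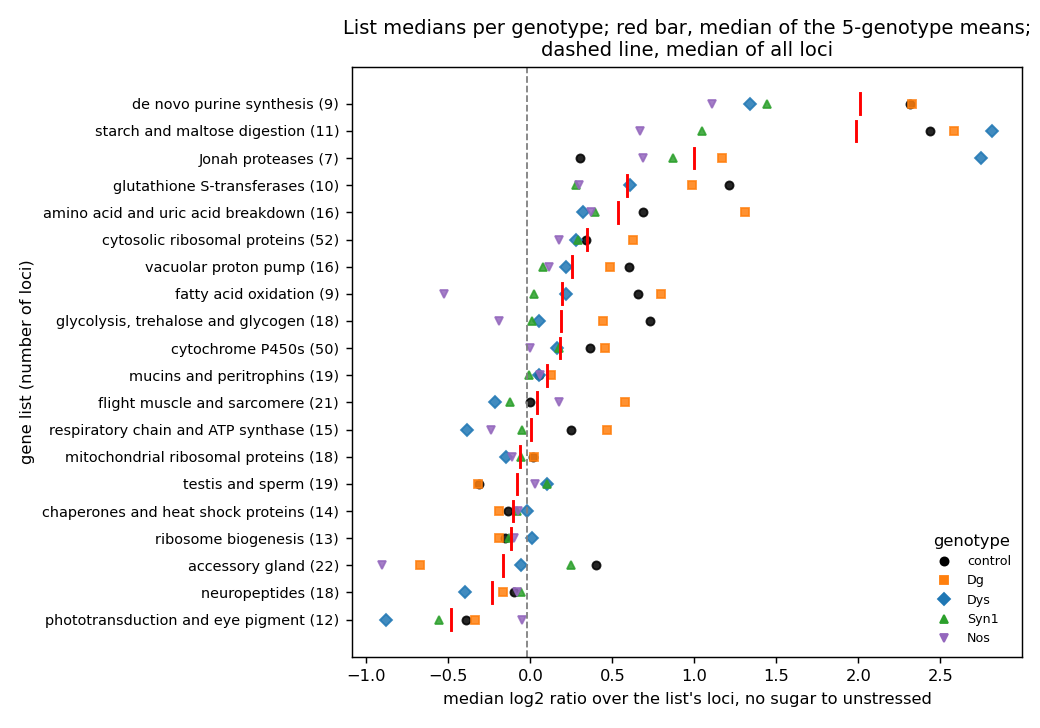
Median log2 ratio over the loci of 20 gene lists, no sugar to unstressed, with 1 point per genotype, a red bar at the median of the 5-genotype means and a dashed line at the median of all 10350 loci (-0.02). Purine synthesis (2.01) and starch digestion (1.98) have the largest medians drawn. Nos has the smallest genotype median of both, at 1.11 and 0.67.

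Of 23 loci of insulin, adipokinetic hormone and nutrient signalling, 2 rose and 1 fell (0, 0, 0, 6 and 1 were called higher without control, Dg, Dys, Syn1 and Nos). The 1 that fell was daw, which is counted again below among the activin loci. CG8317 encodes Limostatin (Lst), a peptide hormone that lowers insulin release. It had 19.4, 23.1, 23.8, 23.0 and 94.8 FPKM unstressed and 66.2, 121.8, 42.9, 74.4 and 121.7 on yeast paste, a rise in each genotype that was smallest in Nos (1.38 ± 0.79, adjusted p = 0.0627). Mio, an older symbol of the sugar-responsive transcription factor Mondo, rose by 0.47 ± 0.34 (adjusted p = 0.084). foxo, the transcription factor held back by insulin, was higher in all 5 genotypes without a call (0.50 ± 0.28, adjusted p = 0.115), and the insulin-like peptide Ilp2 had -0.53 ± 0.51 (adjusted p = 0.171).

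A few of the decreases were at genes for secreted signals. daw, an activin-like ligand, had 10.4, 7.12, 5.97, 10.5 and 8.94 FPKM unstressed and 6.07, 1.39, 4.86, 3.88 and 5.64 on yeast paste. It was lower in each genotype, and the groups overlapped only in the Dys unstressed and the control no-sugar value (-0.91 ± 0.60, adjusted p = 0.049). wit, a type II receptor of this family, fell by 0.32 (SD 0.11, adjusted p = 0.062). Of 10 activin and bone morphogenetic protein loci, a list drawn up after the values were seen, these 2 were called lower and none higher. At an unadjusted p below 0.05 by limma, 3 were lower and 2 higher, and the median of the 10 was -0.04. Without control, Dg, Dys, Syn1 and Nos, 0, 0, 1, 1 and 1 were called lower. Of 18 neuropeptide loci, also listed late, 2 fell and 2 rose. Fmrf had 15.2, 10.8, 12.8, 14.0 and 13.8 FPKM unstressed and 10.6, 5.71, 8.72, 6.98 and 9.08 on yeast paste, just apart (-0.65 ± 0.20, adjusted p = 0.0122). hug, the hugin precursor, fell by 0.74 (SD 0.49, adjusted p = 0.0457), from 7.13 to 10.4 FPKM unstressed to 2.45 to 6.70. CG34388 (natalisin), a neuropeptide gene that is not among the 18, was low throughout and fell from 1.16 to 2.63 FPKM unstressed to 0.50 to 1.08 (-0.65 ± 0.42, adjusted p = 0.0604). The burs locus (0.96 ± 0.48, adjusted p = 0.0457, shared with CG42335) and Ast (0.33 ± 0.15, adjusted p = 0.0772) rose at low levels, the burs locus to at most 6.79 FPKM and Ast to at most 4.69. None of the 4 calls held without Dg, while the 2 decreases were called without Syn1 and without Nos.

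Of 12 loci for phototransduction and eye pigment 1 fell, none rose, and 5 were lower in all 5 genotypes (7.26% of all loci were), at a median of -0.49. By limma, 8 of the 12 were lower and none higher at an unadjusted p below 0.05, where 5.24% of all loci were lower. Rh6, a rhodopsin, had 13.4, 25.98, 27.6, 23.7 and 38.0 FPKM unstressed and 6.88, 18.2, 14.3, 12.5 and 31.4 on yeast paste (-0.68 ± 0.29, adjusted p = 0.0284). Without Dg or Dys no eye locus was called, and without Nos 2 were. Outside the 12, and named by the size of their decrease, were rdhB and CG41343 (lovit). rdhB, a retinol dehydrogenase of the visual cycle, fell by 0.67 (SD 0.46, adjusted p = 0.052). CG41343, a transporter of photoreceptor terminals, fell by 0.94 (SD 0.52, adjusted p = 0.0875). The summed level of the 12 eye loci was 436.8 to 1026 FPKM unstressed and 341.2 to 1038 on yeast paste, lower in 4 of 5 genotypes. What part the amount of head or eye tissue plays was not tested.

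The largest decrease was at CG9377 (2L, 13359794 to 13361693), with 9.87, 5.00, 3.34, 3.79 and 4.16 FPKM unstressed and 3.73, 0.40, 0.33, 0.79 and 0.55 on yeast paste (-1.63 ± 0.34, adjusted p = 0.0325). Its ratio was below -1 in each genotype, from -2.10 in Dg to -1.20 in control. Tig, the matrix protein tiggrin, which binds integrins, fell by 0.76 (SD 0.31, adjusted p = 0.0164), from 2.11 to 5.29 FPKM unstressed to 1.20 to 1.75 with no overlap. Invadolysin, a metalloprotease, fell by 0.57 (SD 0.21, adjusted p = 0.0145), also with no overlap. The locus of betaNACtes2 and betaNACtes6 (-0.60 ± 0.32), CG5770 (-0.53 ± 0.23) and CG5151 (-0.52 ± 0.25) complete the 15 largest decreases.

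Several of the largest increases were at loci known by number alone. The locus of CG17191, CG6271 and CG6277 (3R, 22831558 to 22851927) had 21.8, 35.4, 22.8, 10.1 and 36.4 FPKM unstressed and 263.2, 384.6, 1034, 123.5 and 771.2 on yeast paste (4.04 ± 0.87, adjusted p = 0.0205). CG14245 (3R, 22552810 to 22556096) had 72.9, 53.0, 100.5, 106.9 and 140.7 against 1038, 738.3, 673.5, 851.3 and 826.9 FPKM, the most even of these large changes (3.17 ± 0.59, adjusted p = 0.00348). Neither of these overlapped between diets. CG34040 (4.00 ± 1.27), the CG13323 and CG13324 locus (2.97 ± 1.39), CG13905 (mat in RefSeq, 2.95 ± 1.16), CG10912 (2.74 ± 1.54) and CG4363 (2.32 ± 0.82) rose too, at adjusted p-values from 0.00415 to 0.0388.

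Other lists held no call. Antimicrobial peptides had 0 of 10 loci called by limma, 1 at an unadjusted p below 0.05, and large spreads. edin ran from 0 to 0.62 FPKM unstressed and from 0.15 to 15.97 on yeast paste, with the highest value in Nos (1.39 ± 1.67, adjusted p = 0.506). PGRP-SC2, a peptidoglycan-degrading recognition protein, had 21.3, 85.2, 43.1, 0 and 34.1 FPKM unstressed and 191.0, 576.2, 259.0, 38.7 and 31.5 on yeast paste, higher in 4 genotypes and lower in Nos (2.72 ± 1.93, adjusted p = 0.18). Of the 5 loci for such recognition proteins limma called none, with 4 higher and none lower at an unadjusted p below 0.05 and a median of 0.56, and their summed level was higher in 4 of 5 genotypes. Alpha-mannosidases, which remove mannose from glycans, had 0 of 6 called by limma and 3 higher at an unadjusted p below 0.05, with a median of 1.88. Their genotype medians were 2.35 in control, 3.53 in Dg, 2.29 in Dys and 1.36 in Nos, against -0.69 in Syn1, and without Syn1 3 were called higher. CG9468, named after its values were seen, had a mean of 3.52 with 38.2 FPKM unstressed and 8.82 on yeast paste in Syn1 (SD 3.50, adjusted p = 0.21).

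Flight muscle and sarcomere loci had 0 of 21 called and 0 at an unadjusted p below 0.05 (median 0.04). Testis (0 of 19, with 3 lower at an unadjusted p below 0.05), accessory gland (0 of 22, with 2 lower) and fat body markers (0 of 5, with 1 lower) had no limma call. In Nos the last 2 had medians of -0.90 and -1.69. Takl1 (-0.22 ± 0.57), the CG14642 locus (0.09 ± 0.62) and the G-salpha60A locus (-0.07 ± 0.12) were not called. The study names these genes, and Gapdh1, Glut1, whd, edin and PGRP-SC2 above, for responses that differ between control and mutants. A mean over the 5 genotypes does not test that. Takl1 had a log2 ratio of 0.45 in control and -0.23, -0.62, 0.21 and -0.93 in Dg, Dys, Syn1 and Nos. The CG14642 locus had 0.93 against 0.07, 0.02, 0.26 and -0.81. The limma term for mutants against control called no locus. Hsp83, CG5079 and sro, which the study also names for this diet, were not found by those names among the analysed loci. In all, 26 of 53 lists held no called locus.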

How the data were processed

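RNA from whole males was sequenced in 15 libraries, of which the 10 unstressed and no-sugar libraries are compared here and the 5 heat libraries (5 days at 33°C) add to the estimate of spread. The authors deposited FPKM values per locus. The program behind these FPKM is not given in the sources used here. The submitters' processing notes list STAR, DESeq2 and BDGP6, and the study's methods describe counts, which were not used. FPKM are not counts, so no count test was run, and library depth limits the precision of low values to an unknown degree.

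Named rows with status OK in all tables were kept (10350 of 10776), with no filter on level. Of 8444 gene names, 8419 matched RefSeq or gene name tables. Values were tested as log2(FPKM + 1) with limma 3.58.1 in R 4.3.3, with genotype as the block, over 15 libraries (8 residual degrees of freedom), and calls were made at a Benjamini-Hochberg adjusted p below 0.1. p-values measure the disagreement between genotypes over all 15 libraries, heat included, with variances moderated across loci. They are not tests against the SD printed beside them, which is that of the diet ratios alone. The genotype and treatment fields set the groups. Genotype pairs the libraries by design. Tables and figures were made with Python 3.11.15, pandas 2.3.3, numpy 2.4.6 and matplotlib 3.10.9. The fits were tested on simulated data.

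The members and gene lists were chosen with earlier results of these data known, and 7 of 53 lists after the values had been seen. From the lists, 30 entries known only by number were left out. Named loci are the 15 largest called changes in each direction with 1 sign in all 5 genotypes, up to 4 such called loci per list, and genes the study names for this diet, where found by name. Any other locus in the text was chosen after its values were seen: Mal-A1, Mal-A3, Mal-A5, Mal-A7, Treh, Amyrel, Jon65Aiv, nub, Npc1b, Prat2, ade5, CG17273, ras, bur, hgo, Spat, Gs1, Gdh, P5CDh1, foxo, Ilp2, RpS10a, RpL22-like and CG9468. Alternatives were a pseudocount of 0.1, a mean FPKM of at least 1, median-ratio scaling, the 10 libraries only, no genotype block, an intensity-dependent prior variance, stricter thresholds and leaving out each genotype.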

Additional observations from a re-analysis of the deposited data

Results flagged for a closer look

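Of 83 named loci examined, 4 had 1 genotype whose log2 ratio lay far from the other 4, by a gap of over 0.71 of the range. Chance alone gives about 1 group in 20. CG6767 (Prps) had 3.27 in control against 1.75 to 1.99 in the mutants. betaTry had 2.66 in Dys against 0.59 to 1.10 in the others. Prx2540-2 had 2.14 in control against 0.48 to 0.90, and Sodh-2 had 0.87 in Dg against 0.35 to 0.49.

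Rows without a gene name were outside the comparisons. Of 3336 such loci, 1 was higher in all 5 genotypes with a mean log2 ratio of at least 1 and 0 were lower by as much. It shares the listed interval of CG1673 (Bcat). Its values were 0.36, 0.29, 0.12, 0.38 and 0.51 FPKM in unstressed control, Dg, Dys, Syn1 and Nos and 2.14, 6.11, 3.06, 1.15 and 7.26 on yeast paste (1.72 ± 0.80). Its relation to Bcat was not tested.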

How the results depend on the processing

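All 303 called loci kept their direction under every alternative that tested them. This was largely fixed in advance, since 289 of them had 1 sign in all 5 genotypes. Many calls did not hold. Diet calls numbered 303, 92 with the 10 libraries only, 126 at an adjusted p below 0.05, and from 41 to 634 leaving out 1 genotype. Without the genotype as replicate block, that is without the pairing, 91 were called, all among the 303. Other settings gave 205 to 406. The 2-fold calls numbered 81, 122 with a pseudocount of 0.1, 3 after adjustment, and 60 to 124 leaving out 1 genotype. Loci of at least 2-fold in 1 direction numbered 153, 237 with a pseudocount of 0.1, and 133 to 231 leaving out 1 genotype. Calls for the mutants against control numbered 0, and 0 to 1 leaving out 1 genotype. Of 75 named called loci, 27 were called with the 10 libraries only, 27 without the block, and 14 (without Dg) to 70 (without Syn1) leaving out 1 genotype. Which property of those libraries changes the calls was not tested. With 1 library per genotype and diet, differences between genotypes cannot be told apart from differences between libraries, and depth is unknown.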
